A study of Mus musculus with 474 samples.

Results

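Of the skeletal muscle libraries from Diversity Outbred mice, the 24 with the highest level of Igtp are compared here with the other 450. All libraries were ranked by Igtp in the variance-stabilised (VST) matrix that the authors deposited, the 24 highest formed the Igtp-high group, and the remainder is called the rest. The 24 members were thus chosen by their Igtp values, so Igtp and the marker genes Irgm2 and Iigp1 are described without a test, and any gene that varies along with Igtp had to differ between the groups to some extent. The other genes were compared with sex and outbred generation as covariates, and the contribution of single extreme animals was counted.

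Each library came from 1 mouse of the J:DO outbred stock, whose animals descend from 8 founder strains and differ genetically from one another, so that no animal is a genetic replicate. All animals of both groups received the same high-fat, high-sugar diet, and no untreated or infected group is among them. The muscle was gastrocnemius, all animals were of the same age at harvest according to the study, and polyadenylated RNA was sequenced. The Igtp-high group held 12 females and 12 males. By the generation given in the titles it held 4 of 94 libraries of generation 17, 4 of 93 of generation 18, 4 of 99 of generation 19, 8 of 93 of generation 21 and 4 of 95 of generation 23.

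Interferons are secreted proteins that warn cells of infection. Type II interferon, made mainly by T and natural killer (NK) cells, acts in part through the transcription factor IRF1, whereas type I interferons use STAT2 and IRF9 among others. Both routes switch on overlapping sets of genes, among them the immunity-related GTPases, to which Igtp, Irgm2 and Iigp1 belong, the guanylate-binding proteins (GBPs), the antigen presentation machinery and antiviral effectors. Resting skeletal muscle fibres carry little of this machinery. Bulk RNA cannot tell a larger number of cells of a type from more RNA per cell.

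Igtp lies on chromosome 11 at chr11:58199556-58207591 on the plus strand of GRCm38. Its neighbour Irgm2 spans chr11:58199618-58222782 on the same strand and its gene model overlaps that of Igtp, so reads of the shared stretch are assigned to either gene by the estimation the authors used. Their annotated transcripts also share stretches of 50 bases, 11.8% of those of Igtp and 6.79% of those of Irgm2. The promoters of Igtp, Irgm2 and the first start of Irf1 are shown, whose windows overlap no annotated exon. They carry, just before the start site, letters of elements through which interferon signals are read. The sequences are the 250 bases before the start of the RefSeq gene on GRCm38.p6, all on the plus strand. They lie at chr11:58199306-58199555 for Igtp, chr11:58214727-58214976 for Irgm2 and chr11:53769764-53770013 for the first start of Irf1. The Irgm2 window lies inside the Irgm2 gene model given above, since RefSeq starts that gene further downstream. Capitals mark matches to GAAANNGAAA, the core of the interferon-stimulated response element (ISRE), and to TTCNNNGAA, the gamma-activated sequence (GAS), searched on both strands.
Igtp promoter: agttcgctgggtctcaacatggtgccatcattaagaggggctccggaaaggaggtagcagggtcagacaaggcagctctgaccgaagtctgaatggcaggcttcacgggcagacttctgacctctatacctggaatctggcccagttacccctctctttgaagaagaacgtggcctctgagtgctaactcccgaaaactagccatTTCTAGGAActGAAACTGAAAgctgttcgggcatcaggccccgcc
Irgm2 promoter: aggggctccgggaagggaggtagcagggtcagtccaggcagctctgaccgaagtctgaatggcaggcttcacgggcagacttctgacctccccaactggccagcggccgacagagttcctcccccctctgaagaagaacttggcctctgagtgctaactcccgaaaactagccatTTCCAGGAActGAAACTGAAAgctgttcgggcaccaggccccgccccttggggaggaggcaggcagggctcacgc
Irf1 promoter: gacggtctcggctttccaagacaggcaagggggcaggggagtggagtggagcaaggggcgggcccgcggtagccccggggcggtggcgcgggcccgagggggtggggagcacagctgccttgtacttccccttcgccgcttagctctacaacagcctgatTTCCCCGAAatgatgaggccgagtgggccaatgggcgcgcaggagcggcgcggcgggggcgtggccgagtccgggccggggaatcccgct

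In the Igtp promoter a GAS match, TTCTAGGAA, stood at -45 to -37 from the start and an ISRE match, GAAACTGAAA, at -34 to -25. In the Irgm2 promoter the GAS match was TTCCAGGAA at -75 to -67 and the same ISRE letters lay at -64 to -55. The windows of Igtp and Irgm2 share an unbroken run of 55 bases. Irf1 had a GAS match, TTCCCCGAA, at -90 to -82 and no ISRE match. Gbp2 had an ISRE match, TTTCACTTTC, at -59 to -50. The windows of Psmb9 and of the other start of Irf1 were also searched and held neither set of letters. These windows and that of Gbp2 overlap an annotated exon, so their sequences are not shown. Among all 32851 RefSeq promoter windows of this kind 2.98% held the ISRE letters and 7.02% the GAS letters. These are letter matches in the reference genome and do not show binding.

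Igtp was at 10.053, 10.96 and 16.071 (lowest, median and highest VST score, n = 24) in the Igtp-high libraries and at 8.219, 9.141 and 10.037 in the rest (n = 450). The distribution had no gap at the threshold: the last 3 libraries inside it were at 10.1182, 10.0843 and 10.053 and the first 3 outside at 10.0369, 10.0303 and 10.0257. A few animals stood far above the others. The library DO326, from a female, was at 16.0706, followed by DO094 (male) at 13.9965, DO333 (female) at 13.8783 and DO337 (female) at 13.4379, and the fifth, DO409 (male), was at 11.9926. As CPM, the count of a gene scaled to a fixed total with library sizes adjusted by the trimmed mean of M values, Igtp reached 830.3 in DO326 against a median of 23 in the Igtp-high group and 5.24 in the rest.

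**Figure D1:**
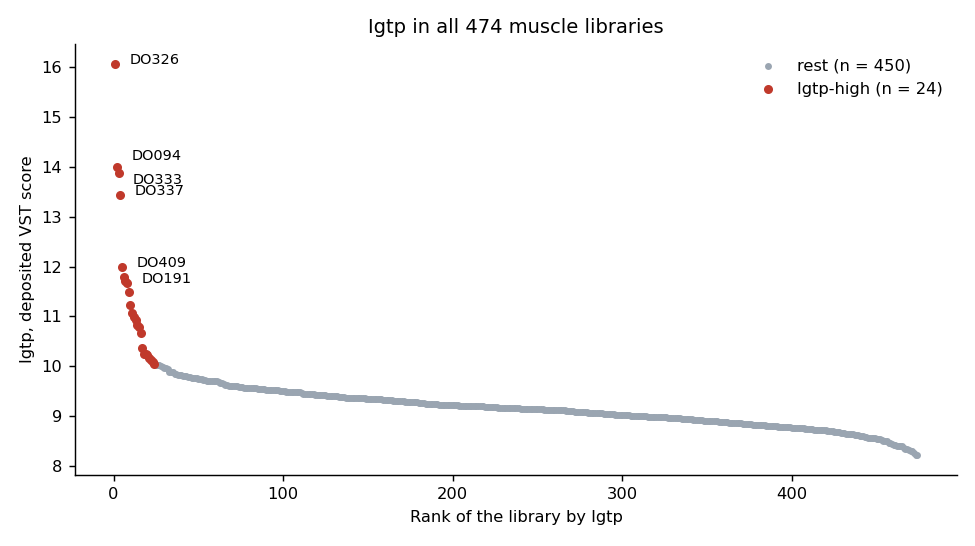
Igtp in every library as the deposited VST score (vertical axis) against the rank of the library (horizontal axis), with the 24 Igtp-high libraries in red and the 450 others in grey. The curve runs without a break through the threshold near 10.05 and 4 libraries, between 13.4379 and 16.0706, stand above all others.

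The 2 further marker genes went largely with Igtp. Irgm2 was at 14.9, 27.2 and 1069 CPM in the Igtp-high group against a median of 9.17 and a highest value of 25.59 CPM in the rest, and 21 of the 24 libraries exceeded the 95th percentile of the rest. Iigp1 was at 7.57, 29.5 and 2814 CPM against a median of 3.56 and a highest value of 81.69 CPM, and 14 libraries exceeded the 95th percentile. The 24 highest libraries by Irgm2 included 18 of the Igtp-high libraries and the 24 highest by Iigp1 included 12. The groups overlapped for both genes.

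The label of interferon-high therefore fitted most, not all, of the 24 libraries. Of 27 further interferon-induced GTPase genes, each rest library had a median of 0 above the 95th percentile of the rest, with a 95th percentile of 7 genes and a maximum of 17. The Igtp-high libraries had between 1 and 22, with a median of 13.5, and 17 of the 24 had more than 7. The other 7 were DO480, DO287, DO320, DO141, DO529, DO165 and DO502, with 6, 4, 1, 1, 7, 6 and 2 genes, and 15 rest libraries also had more than 7. The 24 libraries are therefore called Igtp-high below.

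Total expected counts were between 53400000 and 110000000 with a median of 84300000 (n = 24) in the Igtp-high group and between 35900000 and 166000000 with a median of 78900000 (n = 450) in the rest. The groups did not differ detectably in sex (2-sided Fisher's exact test, p = 1.0) or generation (chi-square 2.87, p = 0.566). Nor did they differ detectably in the 5 blocks cut here from the library numbers (chi-square 2.43, p = 0.651) or in depth (difference of log2 totals -0.0125, p = 0.835). Generation, block and depth were compared by 2-sided permutation tests, and all 4 adjusted p-values were 1.0. The sex label went against Y-linked and X-inactivation transcripts in 5 rest libraries (DO048, DO153, DO193, DO308 and DO347) and in 0 Igtp-high libraries. Both groups were muscle by their defining genes. The fast myosin Myh4 had a median of 68830 CPM in the Igtp-high group and 69550 CPM in the rest (log2 difference -0.04 ± 0.04 SE, adjusted p = 0.757 by edgeR's quasi-likelihood test), and the slow myosin Myh7 differed by 0.05 ± 0.10 (adjusted p = 0.914).

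Before the gene comparison, 3 of the Igtp-high libraries have to be named because single values rest on them. DO326 held the highest Igtp. DO191, a female of generation 18 and rank 8, had all 19 T and NK cell markers, 9 of 10 B and plasma cell markers, all 9 MHC class II genes and 17 of 20 mitosis genes above the 95th percentile of the rest. DO119, a male of generation 17 and rank 14, had 13, 9 and 9 of the first 3 lists and 3 mitosis genes above it. Results are given with and without DO191 and with and without the 4 libraries highest in Igtp. The choice of DO191 and of the 4 libraries was made after the data were examined.

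Which genes went with high Igtp was asked of 18820 genes. Of these, 826 (4.39%) differed at an adjusted p under 0.05, with 776 (4.12%) higher and 50 (0.266%) lower in the Igtp-high group. A difference of at least 1.5-fold was also reached by 2.79% of the genes, 2.73% higher and 0.0691% (13 genes) lower. The differences of the 776 higher genes ranged from 0.09 to 4.25 on the log2 scale with a median of 0.81, whereas the median over all genes tested was -0.0004. A test on rank normal scores, in which a single extreme library weighs little, called 2.13% of the genes, 2.0% higher and 0.128% lower. Both tests called 47.2% of the 776 higher genes (1.94% of those tested) and 23 of the 50 lower genes (0.122%).

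Large increases were found among the interferon-induced GTPases, a list that holds the immunity-related GTPases, the GBPs, Mx1, Mx2 and related genes. Of its 27 members other than the 3 markers, 25 were higher, 0 were lower and 2, Mx1 and Mx2, did not pass the test, and the median log2 difference was 2.17. The immunity-related GTPases attack or mark the membranes around intracellular microbes. Gm12250, which lies next to Igtp and is known to encode an immunity-related GTPase although the annotation used here lists it as a processed pseudogene, was at 0.156, 1.63 and 27.8 CPM in the Igtp-high group against a median of 0.1 and a highest value of 1.84 CPM in the rest (log2 difference 4.25 ± 0.23, adjusted p = 2.11e-55). Its groups overlapped, with 12 of 24 libraries above every rest library. Gm12185 (3.73 ± 0.20, adjusted p = 6.4e-56), Gm4841 (3.73 ± 0.28), Tgtp2 (3.40 ± 0.25) and Tgtp1 (3.09 ± 0.18, adjusted p = 1.12e-47) followed within the list. DO326 held 60.4% of the excess of Gm12185 and 70.2% of that of Gm4841, and without it their differences were 2.73 and 2.33, both still called. Tgtp1 was at 0.807, 18 and 58 CPM against a median of 1.69 and a highest value of 15 CPM, and 15 libraries exceeded every rest library.

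Tgtp1 and Tgtp2 are near-identical copies on chromosome 11, with 79.4% of the 50-base stretches of Tgtp1 also in Tgtp2, so their separate values are uncertain. In all, 23 of 30 listed GTPase genes share at least 20 such stretches with another member, among them Gbp6 with Gbp10 and Gm43302. The GBPs, large GTPases that coat microbes and set off inflammatory cell death, moved in the same direction. Gbp2 was at 4.12, 14.5 and 73.31 CPM in the Igtp-high group against a median of 4.05 and a highest value of 14.95 CPM in the rest (2.19 ± 0.08, adjusted p = 5.67e-92), with 18 libraries above the 95th percentile. Gbp4 differed by 2.82 ± 0.15, Gbp8 by 2.81, Gbp7 by 2.47, Gbp3 by 2.34 and Gbp5 by 2.17, and the smallest called difference among the GBPs was that of Gbp10 at 1.14. Gbp7, with 57.5% of its excess in DO326, differed by 1.59 without that library, where Gbp10 lost the call. Summed over the listed GTPases, the Igtp-high libraries were at 158.5, 456.5 and 14010 CPM, with the highest sum in DO326, and the rest had a lowest sum of 67.1, a median of 173 and a 95th percentile of 304.1 CPM.

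**Figure D2:**
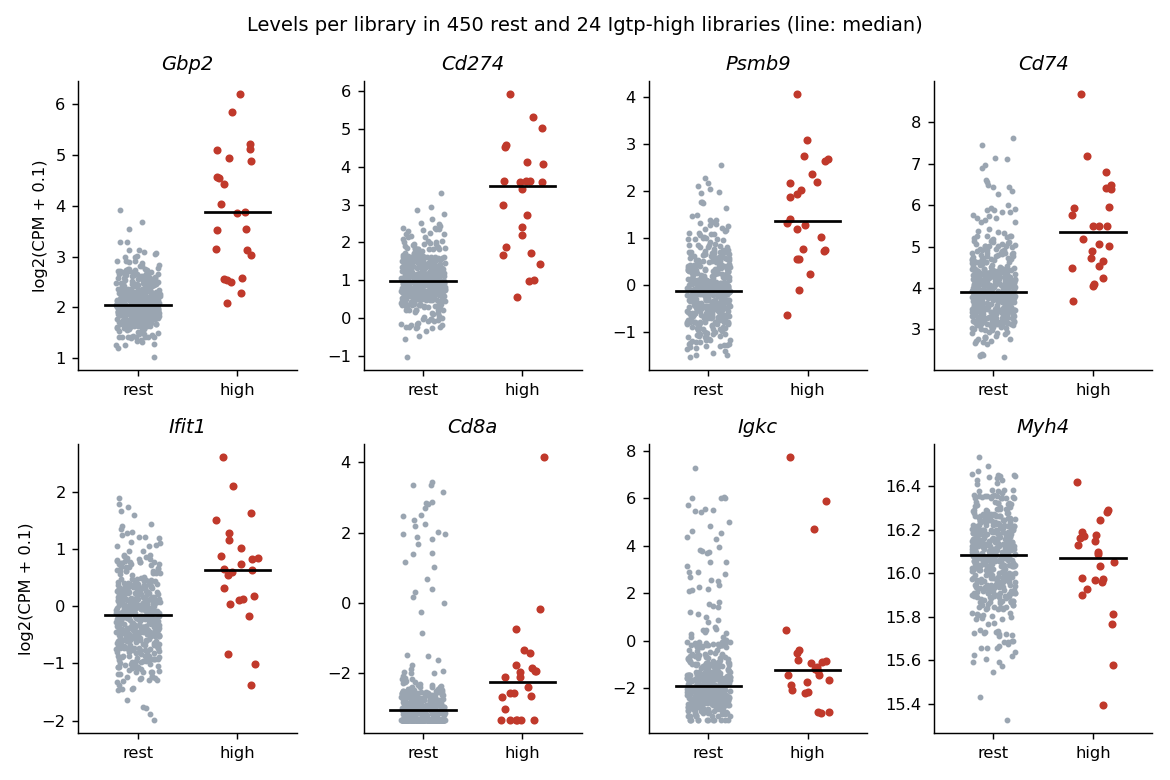
Levels of 8 genes per library on a log2 CPM scale (vertical axes), with the 450 rest libraries in grey, the 24 Igtp-high libraries in red and the median of each group as a line. The medians of Gbp2, Cd274, Psmb9, Cd74 and Ifit1 were higher in the Igtp-high group with overlapping groups, a single Igtp-high library, DO191, stands apart for Cd8a and is the highest for Igkc, and the medians of Myh4 differed little.

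Of 24 genes for interferon receptors, signalling and transcription factors 11 were higher and 0 lower, with a median of 0.24, and 10 were higher with a median of 0.11 without DO191. The 13 that did not pass the test were the 4 receptor chains, the 3 kinases, the transcription factors Irf2, Irf3 and Irf5 and the inhibitors Ptpn2, Socs1 and Socs3. Irf1 differed by 1.19 ± 0.07 (adjusted p = 5.66e-43), Stat2 by 0.91 ± 0.06, Irf7 by 1.13 and Irf9 by 0.84. Batf2, a partner of IRF1 in macrophages, differed by 3.03 ± 0.18 and Nlrc5, the activator of class I genes, by 2.55 ± 0.17. Ciita, the activator of class II genes, differed by 1.69 ± 0.22 (adjusted p = 2.02e-11) and by 1.00 without DO191, which held 60.6% of its excess. The receptor chains Ifngr1, Ifngr2, Ifnar1 and Ifnar2 had differences of 0.12, 0.09, 0.09 and 0.08 and the kinases Jak1, Jak2 and Tyk2 of -0.03, 0.05 and 0.09, none past the threshold. The interferon gamma gene itself, Ifng, was not analysed here.

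Genes of peptide presentation on MHC class I were higher in the Igtp-high group in 21 of 24 cases, with 0 lower and a median of 0.96. The 3 that did not pass were H2-T22, Pdia3 and Calr. The peptide transporter Tap1 differed by 2.21 ± 0.13 (adjusted p = 3.1e-45), the immunoproteasome subunits Psmb9 by 1.94 ± 0.14, Psmb8 by 1.70 ± 0.12 and Psmb10 by 0.78, and the light chain B2m by 1.13 ± 0.08. Psmb9 was at 0.547, 2.5 and 16.7 CPM against a median of 0.821 and a highest value of 5.8 CPM, with overlapping groups and 5 libraries above every rest library. The largest class I difference was that of the non-classical gene H2-Q7 at 2.25 ± 0.21, and copies of this family differ between founder strains and share sequence, which makes single class I heavy chain values uncertain. The 31 genes of the constitutive proteasome gave 0 higher and 0 lower, with a median of -0.04, with 0 higher and 6 lower at an unadjusted p under 0.05 by edgeR, and 0 of them passed the rank normal test. Their 2 members with the highest level, Psmd2 and Psmd1, differed by -0.05 ± 0.03 (adjusted p = 0.437) and -0.02 ± 0.02 (adjusted p = 0.87).

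All 9 MHC class II presentation genes that could be tested were higher, with a median of 1.57. The invariant chain Cd74 was at 12.7, 40.6 and 408.9 CPM in the Igtp-high group against a median of 14.8 and a highest value of 196 CPM in the rest (1.63 ± 0.16, adjusted p = 1.03e-18). Its groups overlapped and 9 libraries exceeded the 95th percentile. H2-Aa, H2-Ab1 and H2-Eb1 differed by 1.66 ± 0.17, 1.64 ± 0.17 and 1.95 ± 0.24. DO191 held between 37.3% and 45.4% of the excess of these 4 genes, and without it 7 of the 9 genes were called with a median of 1.26. In the Igtp-high group 13 of 24 libraries had 0 class II genes above the 95th percentile of the rest.

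**Figure D3:**
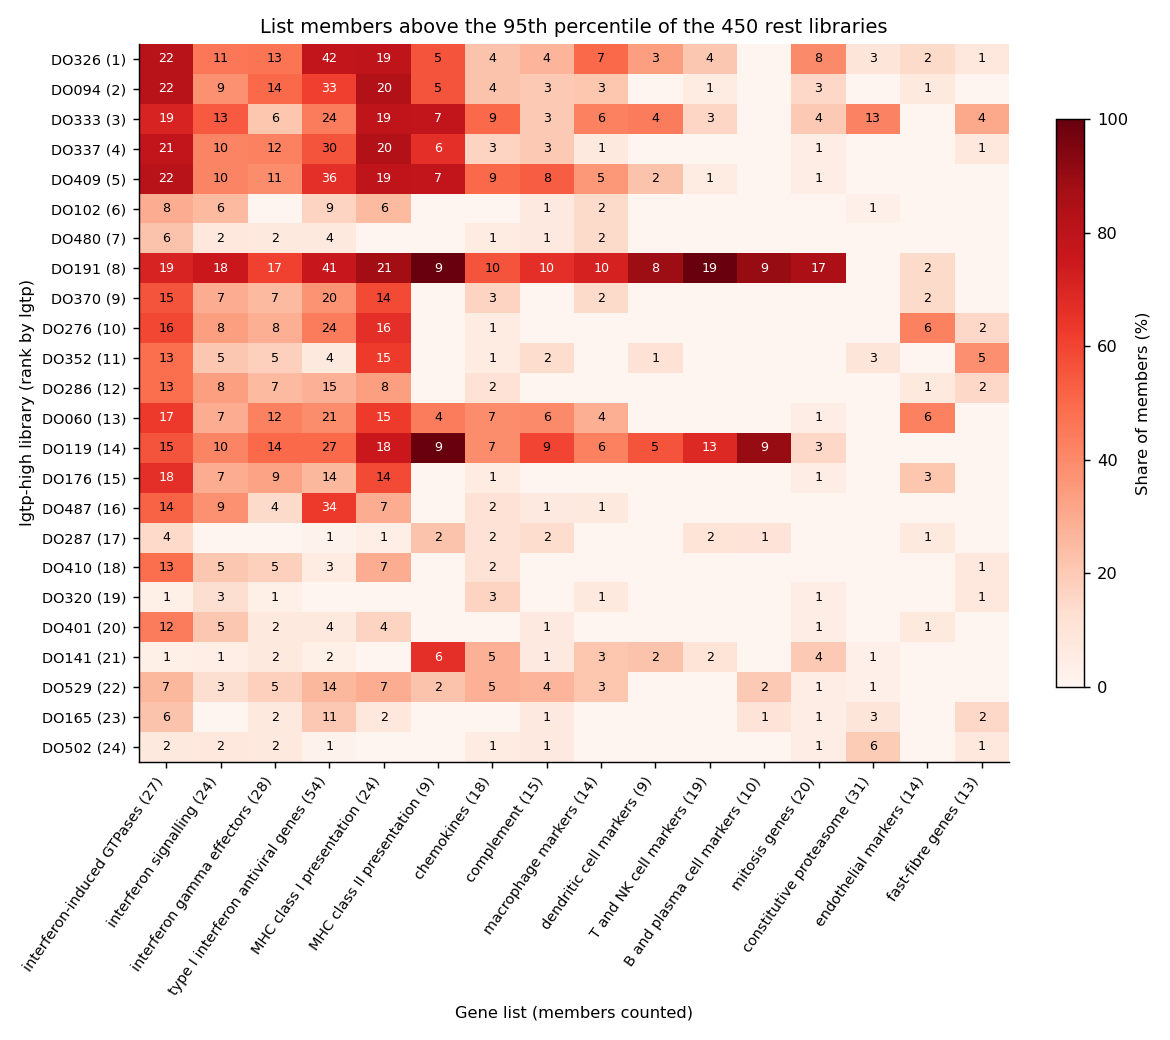
Number of genes of each list (horizontal axis, with the number of genes counted) that exceeded the 95th percentile of the 450 rest libraries in each of the 24 Igtp-high libraries (vertical axis, ordered by Igtp). GTPase and class I genes are above it in most rows (17 of 24 libraries pass the 95th percentile of the rest's own counts for each of these lists), whereas T and NK cell markers pass it in DO191 and DO119 only.

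Of 54 antiviral genes best known for type I interferon 45 were higher and 0 lower, with a median of 0.66. Zbp1, a sensor of viral nucleic acid that triggers cell death, differed by 2.59 ± 0.23 (adjusted p = 7.92e-24), and Isg15, a ubiquitin-like modifier, by 1.07 ± 0.18 (adjusted p = 2.07e-07). Ifit1, which binds foreign RNA, was at 0.286, 1.46 and 6.01 CPM against a median of 0.796 and a highest value of 3.59 CPM (1.00 ± 0.14, adjusted p = 1.87e-10), and the groups overlapped. Of the 24 Igtp-high libraries 6 were among the 24 highest for Isg15 and 6 for Ifit1, beside 17 for Gbp2 and 16 for Cd274, and the difference between these overlaps was not tested. Mx1, an antiviral GTPase listed with the GTPases, had a difference of 0.53 ± 0.35 (adjusted p = 0.589).

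Effectors linked to interferon gamma were higher in 17 of 28 cases and lower in 1, with a median of 0.49. Without DO191 11 were higher with a median of 0.34. Cd274, the checkpoint ligand PD-L1 that restrains T cells, was at 1.36, 11.2 and 60.4 CPM in the Igtp-high group against a median of 1.87 and a highest value of 9.83 CPM in the rest (2.73 ± 0.11, adjusted p = 1.76e-79). It exceeded every rest library in 13 of 24 libraries. Ido1, which breaks down tryptophan, differed by 2.95 ± 0.23 and Apol9a by 2.33 ± 0.31, both from levels under 0.1 CPM in the median rest library. Serpina3g, a protease inhibitor, differed by 3.54 ± 0.41 (adjusted p = 2.08e-14), with 60.8% of its excess in DO191 and a difference of 2.46 without that library. The 1 lower gene was Nos2, the inducible nitric oxide synthase, at -0.35, a gene named here after its value was seen, and without the 4 highest libraries 0 genes of the list were lower. Among 18 chemokines 8 were higher and 0 lower, led by the T cell attractants Cxcl9 (2.86 ± 0.19, adjusted p = 2.1e-40) and Cxcl10 (2.05 ± 0.19), with Ccl8 at 1.76 ± 0.28 and Ccl5 at 1.49 ± 0.46. Of 15 complement genes 8 were higher and 0 lower, with smaller differences such as 0.67 ± 0.14 for Cfb, 0.41 ± 0.08 for C1qb and a median of 0.25. Without DO191 5 of the 18 chemokines were higher with a median of 0.24 and 2 of the 15 complement genes with a median of 0.16, and without DO326 5 complement genes were higher. Ccl5 and Cfb lost the call without DO191, at 0.99 and 0.22.

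Markers of immune cells were higher to a degree that depended on DO191. Of 19 T and NK cell markers 13 were higher with a median of 1.53, and without DO191 2 were higher with a median of 0.06, against 1.48% of all genes called in that fit. The T cell co-receptor gene Cd8a was at 0, 0.112 and 17.7 CPM against a median of 0.0213 and a highest value of 10.8 CPM (1.26 ± 0.60, adjusted p = 0.318), and its difference was -0.69 without DO191. Of 10 B and plasma cell markers 7 were higher with a median of 1.71, and 0 were higher with a median of -0.11 without DO191. Igkc, the kappa light chain, was at 0.0233, 0.327 and 214 CPM against a median of 0.172 and a highest value of 154 CPM, with 85.2% of its excess in DO191. Summed over the T and NK cell list the Igtp-high libraries were at 0.434, 2.52 and 264.1 CPM and the rest at 0.362, 1.32 and 153 CPM. On rank normal scores, with all libraries, 8 of the 19 T and NK cell markers and 0 of the 10 B and plasma cell markers were called. In 16 of the 24 libraries 0 T and NK cell markers exceeded the 95th percentile of the rest, and in 19 of 24 so did 0 B and plasma cell markers.

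High levels of lymphocyte genes also occurred at low Igtp. In the rest, 23 libraries had at least 10 of the 19 T and NK cell markers above the 95th percentile, and their Igtp scores ran from 8.40 to 9.85 with a median of 9.13, close to the median of the whole rest. They had between 2 and 17 of the 27 GTPases above it, with a median of 5, a median of 11 of the 24 class I genes and a median of 9 of the 9 class II genes. In the Igtp-high group the medians were 13.5 GTPases, 11 class I genes and 0 class II genes. DO158, at an Igtp score of 9.19, had 13 of the 27 GTPases, 40 of the 54 antiviral genes and all 19 T and NK cell markers above it. Among the Igtp-high libraries only DO191 and DO119 had at least 10 T and NK cell markers there. The part of lymphocytes in the group difference was not tested.

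The other immune lists had smaller differences. Of 14 macrophage markers 5 were higher and 0 lower with a median of 0.25, including Adgre1 (0.59 ± 0.09, adjusted p = 1.26e-08), Fcgr1 (1.09 ± 0.16), the high-affinity IgG receptor that interferon gamma is known to induce, and Aif1 (1.43 ± 0.17, 47.6% of its excess in DO191 and 0.94 without it). Of 9 dendritic cell markers 5 were higher with a median of 0.57 and 1 with a median of 0.32 without DO191, and of 7 neutrophil markers 3 were higher with a median of 0.60 and 0 with a median of 0.44 without DO191. Of 20 mitosis genes 8 were higher, among them Top2a (1.33 ± 0.25) and Mki67 (1.25 ± 0.25), with a median of 0.57, and 0 were higher with a median of 0.08 without DO191.

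Markers of the resident tissue did not pass the test. Endothelial (14), fibro-adipogenic progenitor (12), adipocyte (9), erythroid (6), Schwann cell (8), satellite cell and regeneration (13), slow-fibre (10), fast-fibre (13), oxidative phosphorylation (46) and cytosolic ribosomal protein (49) genes gave 0 higher and 0 lower by edgeR and on rank normal scores, with medians between -0.05 and 0.04. At an unadjusted p under 0.05 by edgeR 2 of these 180 genes were higher and 5 lower. Among females alone 8 of the 46 oxidative phosphorylation genes were lower (median -0.12), against 0.964% of all genes lower in that fit. Among males alone 0 of the 46 were lower and 0 higher (median 0.08). The difference between the sexes was not tested for the list. The endothelial gene Pecam1 differed by 0.01 ± 0.04 (adjusted p = 0.971) and the collagen gene Col1a2 by -0.24 ± 0.10 (adjusted p = 0.223). Of 22 acute-phase and glucocorticoid-responsive genes 1 was higher, against 4.12% of all genes tested. This gene, Tnfaip3, an inhibitor of NF-kappaB signalling (0.39 ± 0.11, adjusted p = 0.0119), lost the call without DO191 (0.10).

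**Figure D4:**
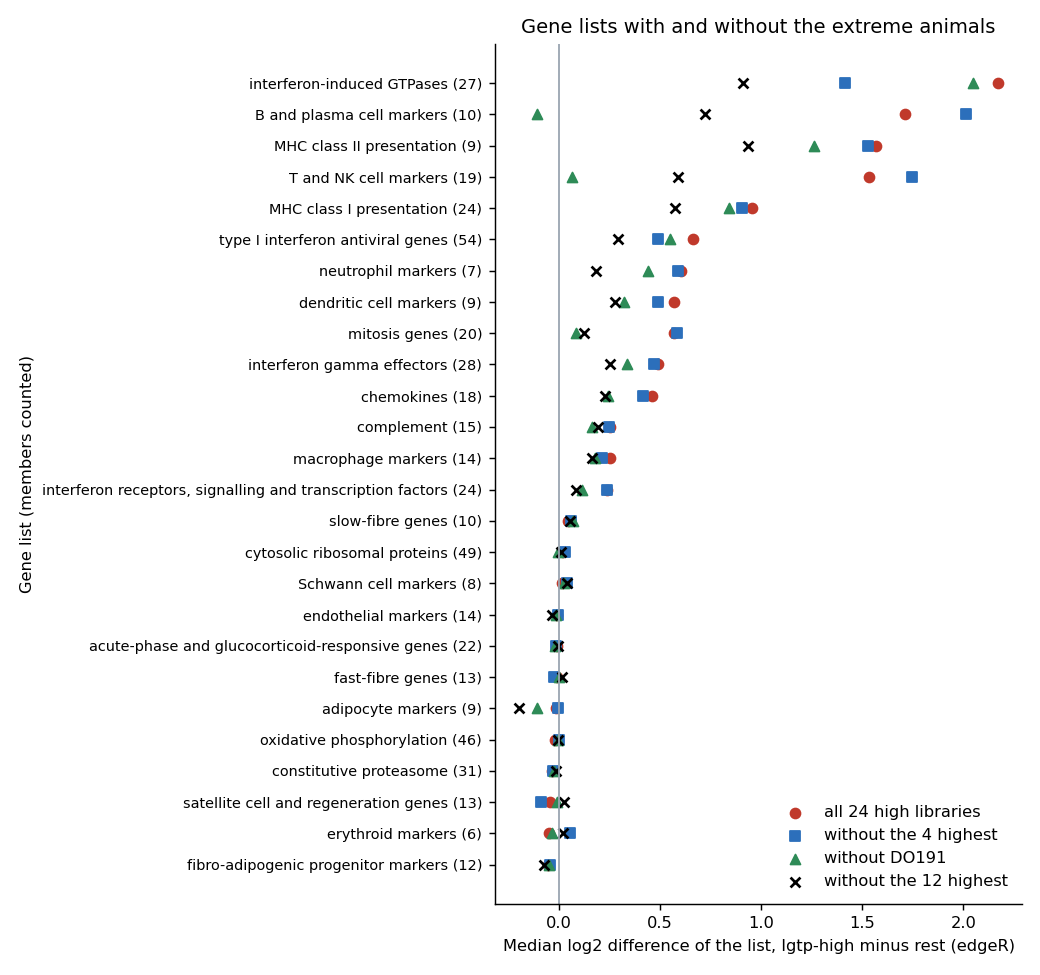
Median log2 difference, Igtp-high minus rest (horizontal axis), of each gene list (vertical axis, with the number of genes) with all 24 Igtp-high libraries, without the 4 highest, without DO191 and without the 12 highest. The GTPase median is 2.17, 1.42, 2.05 and 0.91 in these fits in turn, and the T and NK cell and B and plasma cell medians lie at 0.06 and -0.11 without DO191.

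Of the 50 genes that were lower in the Igtp-high group, 37 differed by less than 1.5-fold. The 10 with the largest decrease that passed both tests at a mean of at least 1 CPM lay between -0.30 and -0.14. Rom1, a membrane protein first known from photoreceptors, was at 1.69, 3.82 and 5.35 CPM against a median of 4.53 and a highest value of 8.22 CPM (-0.30 ± 0.07, adjusted p = 0.000376). Gfer, a sulfhydryl oxidase of the mitochondrial intermembrane space, differed by -0.29 ± 0.08 (adjusted p = 0.0171), Peli3 by -0.28 ± 0.08, Pcdh12 by -0.27 ± 0.08, Galnt18 by -0.23 ± 0.06, Sesn2 by -0.23 ± 0.07, Snrnp35 by -0.18 ± 0.06, Zfp521 by -0.18 ± 0.05, Tnks1bp1 by -0.15 ± 0.03 and Commd9 by -0.14 ± 0.04. Of the 50 lower genes 10 were called without the 4 highest libraries, 17 without DO191 and 0 without the 12 highest, while their median difference was -0.19 with all libraries and -0.18, -0.17 and -0.19 in these fits. The 13 genes that were at least 1.5-fold lower had a median of -2.42 and a lowest value of -5.00. Of these 13 genes 8 were called without the 3 highest libraries, 4 without the 4 highest and 8 without DO191, with medians of -2.33, -2.28 and -2.38. On rank normal scores 3 of the 13 were called, and without the 12 highest libraries 0 were. The part of extreme rest libraries in these decreases was not tested. The largest decrease, that of Gm10874, was -5.00 ± 1.12 (adjusted p = 0.000564), at medians of 0.0687 and 0.0752 CPM, and this gene was named after its value was seen. The skin desmosome gene Pkp1 had a highest value of 30.9 CPM in the rest and 0.32 CPM in the Igtp-high group (-2.62 ± 0.80, adjusted p = 0.03), with medians of 0.0414 and 0.00943 CPM, and Dmkn was alike (-2.42 ± 0.72). Pkp1 and Dmkn are given because their calls were lost without the 3 highest libraries.

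What a few animals contributed was measured first by leaving them out. Without DO326, 3.8% of the genes tested were called, without the 3 highest libraries 3.5%, without the 4 highest 3.6% and without the 6 highest 3.46%. Without DO191 alone, at rank 8, the share was 1.48%. Without both DO326 and DO191 it was 1.05% (198 genes), and with only the lower 12 of the 24 libraries 0.35% (66 genes). Of the 776 higher genes 87.1% were still called without DO326, 79.5% without the 4 highest, 33.8% without DO191, 24.1% without DO326 and DO191 and 8.38% without the 12 highest.

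The second measure was the share of each gene's excess that came from 1 library, where the excess is the CPM above the mean of the rest, summed over the 24 libraries. DO191 alone held over 50% of the excess of 50.8% of the 776 higher genes and DO326 of 51 genes (6.57%). Each of DO337, DO060, DO119 and DO502 did so for at most 2 genes, and for 42.4% of the genes no library did. Of the 776 genes 56 (7.22%) were above the 95th percentile of the rest in at least 12 of the 24 libraries and 46.1% in 3 or fewer. Of the genes higher by at least 1.5-fold, DO191 had 91.6% above that percentile, DO119 68.8%, DO333 48%, DO326 47% and DO320, the lowest of the 24, 3.12%, with a median of 14.7%. Among the rest the share ran from 0 to 80.9% with a median of 1.36%, and 10 rest libraries exceeded DO119 and 20 exceeded DO326. The highest of these was DO158.

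**Figure D5:**
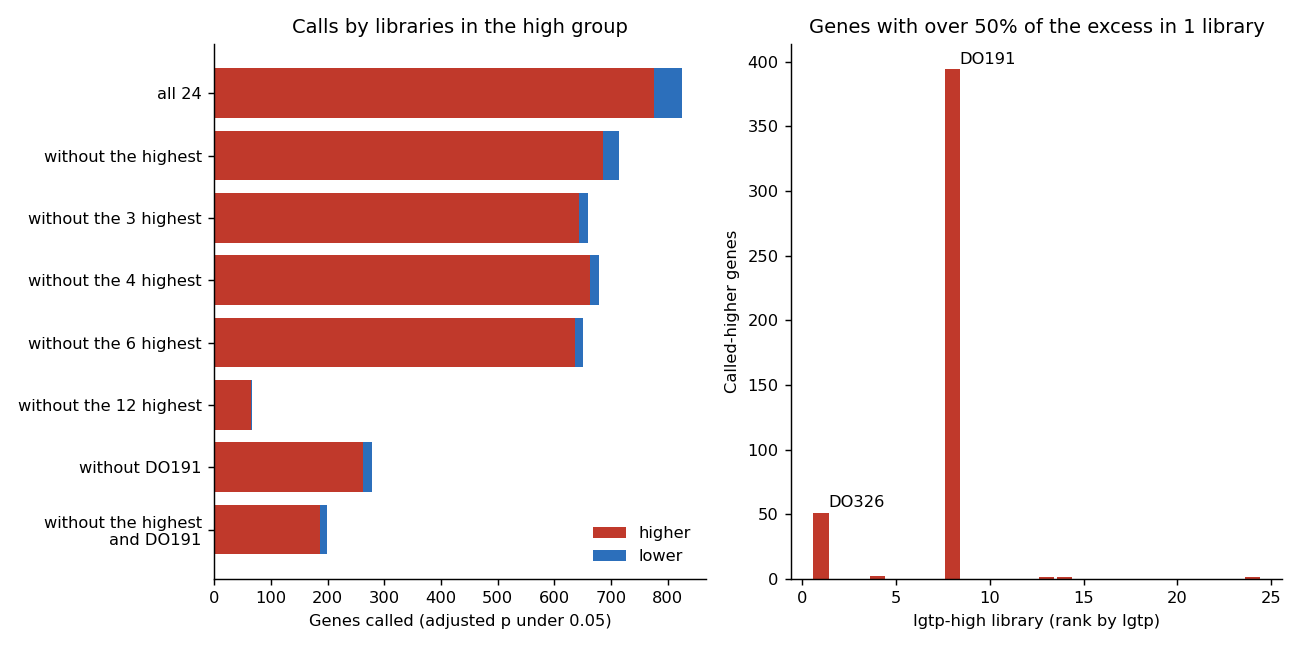
Left, the number of genes called higher and lower (horizontal axis) with all 24 Igtp-high libraries and with the named libraries left out (vertical axis). Right, the number of the 776 higher genes (vertical axis) for which 1 library holds over 50% of the excess, by the rank of that library in Igtp (horizontal axis), with DO191 at 50.8% of them and DO326 at 51 genes.

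The gene groups that these libraries bear on can be read from the same fits. The GTPase median was 2.17 with all libraries, 1.55 without DO326, 1.42 without the 4 highest and 2.05 without DO191, and 22 and 23 of the 27 genes were called in the last 2 of these fits. The class I median was 0.96, 0.91 without the 4 highest and 0.84 without DO191, and the antiviral median 0.66, 0.49 and 0.55. Gbp2 and Cd274 differed by 1.86 and 2.23 without the 4 highest libraries, which held 40.8% and 45.4% of their excess, and both were still called. F830016B08Rik, a GTPase gene on chromosome 18, reached 4007 CPM in the highest library against a median of 24.4 and a highest value of 163 CPM in the rest (3.05 ± 0.29), and without the 4 highest libraries its difference was 0.66 (adjusted p = 0.477).

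Among the 51 genes whose excess lay mainly in DO326, 32 (62.7%) were not protein-coding, against 19.3% of all genes tested. Of the 50 with a transcript other than Gm21750 itself, 11 (22%) shared at least 20 stretches of 50 bases with Gm21750, against 21 of 18819 (0.112%) over all genes. Gm21750, on chromosome 14, was at 2.43, 7 and 348.4 CPM against a median of 4.07 and a highest value of 15.2 CPM (2.32 ± 0.15, adjusted p = 9.1e-42), and without the 4 highest libraries its difference was 0.38 (adjusted p = 0.173). The 21 genes that share sequence with it summed to 1557 CPM in DO326, the highest of all libraries, and to a lowest value of 145 and a median of 221.2 CPM in the rest. They have no separate values to the extent that reads fit several of them.

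Within the rest, where no library was chosen for high Igtp, the slope of each gene on the Igtp score was fitted over the 450 libraries. The slope passed an adjusted p under 0.05 for 2.92% of the genes, and was positive for 1.69% and negative for 1.23%. Positive slopes were found for 15 of the 27 GTPases, 17 of the 24 class I genes, 31 of the 54 antiviral genes, 13 of the 24 signalling genes and 5 of the 9 class II genes, against 1 of 19 T and NK cell markers and 0 of 20 mitosis genes. Called negative slopes were those of 4 of 22 acute-phase and glucocorticoid-responsive, 2 of 13 satellite cell and regeneration, 1 of 31 constitutive proteasome and 1 of 9 adipocyte genes. With fewer libraries over a narrower range of Igtp, 29 genes were called over the 50% of these libraries with higher Igtp and 0 over the 50% with lower Igtp by the same limma test, with 945 and 1534 genes at an unadjusted p under 0.05. The genes with the highest Pearson correlation with Igtp over the 450 libraries, after sex and generation, were Irgm2 (r = 0.80), Tgtp1 (0.48), Gbp4 (0.46), Gbp2 (0.44) and Stat2 (0.43). These points share the libraries and their depth, and Irgm2 shares sequence with Igtp. Cd274 had a slope of 0.38 log2 units per VST unit (adjusted p = 3.16e-13), whereas F830016B08Rik had -0.04 (adjusted p = 0.956) and Gm21750 0.06 (adjusted p = 0.692).

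Whether the group difference itself differed between the sexes was tested with 12 Igtp-high libraries of each sex. An interaction was called for 45 genes (0.239%), with 8 more positive in males and 37 more positive in females. Irgm1, a regulator of the other GTPases, differed by 2.08 in females and 1.22 in males (male minus female -0.93, adjusted p = 2.32e-05) and Gbp7 by 3.21 and 1.36 (-1.82, adjusted p = 0.00031). Of the 4 highest libraries 3 were female. Without the 3 highest libraries edgeR called 0 interactions, with 1516 genes at an unadjusted p under 0.05 against 1909 with all libraries, and those of Irgm1 and Gbp7, which were named after their values were seen, were -0.19 (adjusted p = 0.692) and -0.64 (adjusted p = 0.619). Among females alone 5.11% of genes were called and among males alone 0.896%, and DO191 is a female.

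Libraries were numbered in 5 blocks, which the titles show and whose meaning they do not give. With the block as a covariate 768 genes were called, and the GTPase median was 2.19 and the class I median 0.97. In that fit 8 of 19 T and NK cell markers, 3 of 10 B and plasma cell markers and 5 of 18 chemokines were higher, against 13, 7 and 8 without the block. Of the 31 constitutive proteasome genes 2 were lower with the block (median -0.04), against 0 without it. Within the blocks, which held 4, 3, 4, 7 and 6 Igtp-high libraries, 141, 44, 43, 44 and 1033 genes were called, and the block with the most calls contains DO191. The GTPase median was positive in every block, at 2.19, 1.13, 1.92, 1.39 and 2.44, as was the class I median, at 0.89, 0.61, 0.63, 0.70 and 1.47. The T and NK cell median was 0.72, 1.22, -1.37, 0.08 and 4.05 and the B and plasma cell median -2.18, 2.21, -2.32, -0.08 and 5.07, so neither kept 1 direction across the blocks. With the summed levels of the macrophage, T and NK cell, endothelial, adipocyte and slow-fibre lists as covariates 1.36% of the genes were called, and the medians were 1.85 for the GTPases, 0.75 for class I and 0.46 for the antiviral genes, with 23 of 27, 19 of 24 and 31 of 54 higher. In this fit 7 of 9 class II genes (median 0.87), 10 of 28 interferon gamma effectors (0.31), 4 of 18 chemokines (0.15) and 10 of 24 signalling genes (0.11) were higher. The macrophage and T and NK cell lists, with 3 of 14 (median 0.03) and 1 of 19 (0.05) higher, were themselves adjusted for. Their low values follow from the fit and are no result about these lists. Of the complement, B and plasma cell, dendritic cell, neutrophil and mitosis lists 0 genes were higher by edgeR.

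Genes close to Igtp on chromosome 11, which includes Irf1, were called about as often as others. Of 154 genes within 5 Mb of Igtp 6 were higher and 1 lower, 4.55% against 4.39% of all genes tested. Among the called genes that had a RefSeq promoter window the ISRE letters were found for 77 higher genes (14.2%), against 3.21% of 12702 tested genes, and the GAS letters in 9.93% against 7.16%. By list, 12 of 16 GTPase windows (75%), 16 of 43 antiviral (37.2%), 3 of 20 class I (15%), 1 of 8 T and NK cell (12.5%) and 2 of 25 constitutive proteasome windows (8%) held the ISRE letters, and the GAS letters were in 8 (50%), 5 (11.6%), 2 (10%), 0 and 0 of these windows in the same order. The GTPase promoters are copies of one another in part, as those of Igtp and Irgm2 show, so they are not independent counts.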

How the data were processed

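Gene-level expected counts and a VST score for 20612 genes were used in all libraries, 1 library per mouse. The authors aligned both mates as single reads to a transcriptome of the 8 founder strains on GRCm38 and deposited expected counts estimated by EMASE through GBRS. They also deposited a score, the DESeq2 variance-stabilised (VST) value, which is on a log2-like scale. Tool versions and strand handling are not given in the sources used here. Of the deposited expected counts 68.6% were whole numbers (tolerance 1e-06).

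Expected counts were rounded to whole numbers. Genes were kept by filterByExpr with a minimum count of 10 (18823 kept, 1789 removed), library sizes were scaled by TMM (factors 0.871 to 1.29), and the Igtp-high group was compared with the rest by edgeR's quasi-likelihood test with sex and generation (both given in the titles) as covariates and Benjamini-Hochberg adjustment at 0.05. The study also used wave, which the labels do not give, and its methods name fewer generations than the titles. Errors of log2 differences are SE. Slopes within the rest came from limma on the VST score. The make-up of the groups was tested with 100000 permutations. Igtp, Irgm2 and Iigp1 were left out of all counts of calls. The members and the 26 gene lists were chosen with earlier results of these data known.

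Named genes were the 3 markers, the 10 largest rises and falls called by edgeR and on rank normal scores at a mean of at least 1 CPM, up to 4 called members of each list by size (the 2 highest in level where none was called), the 5 largest calls lost without the 3 highest libraries, the 5 highest correlates of Igtp in the rest and a fixed set (Irf1, Psmb8, Psmb9, B2m, Cd74, Isg15, Ifit1, Mx1, Cxcl9, Cd8a, Adgre1, Pecam1, Myh4, Myh7). Some genes that the rule names are not reported here. Further members named with their list are there to describe it.

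Alternatives were DESeq2, no TMM factor, limma on the VST score and on rank normal scores, no filter and a stricter filter, other covariates, other group sizes and rankings, leaving libraries out, fits within blocks of library numbers and within sexes. On simulated data with 18823 genes in this design the main test recovered 60% of genes changed 1.5-fold and 90% of those changed 2-fold, with 9 false calls. The simulation drew genes independently, gave all 24 libraries the same fold and held no extreme animal. Its figures therefore do not describe genes whose difference rests on 1 library. Sequence sharing was counted over stretches of 50 bases of annotated transcripts. Fits used limma 3.58.1, DESeq2 1.42.0, edgeR 4.0.16 and data.table (1.17.8) under R 4.3.3, and summaries and figures used scipy 1.17.1, matplotlib 3.10.9, pandas 2.3.3 and numpy 2.4.6 under Python 3.11.15. The p-values of the gene fits rest on the spread between animals, and the groups they compare were formed by Igtp. Those of the make-up tests rest on Fisher's exact test or on permutations over the libraries. Starts and ends of genes on GRCm38 equal GENCODE M21 for 99.5% of genes.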

Additional observations from a re-analysis of the deposited data

Results flagged for a closer look

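For 4 genes named in the text the Igtp-high minus rest difference itself differed between females and males by the edgeR interaction test. The male minus female value was -1.94 for Cxcl10 (adjusted p = 0.0103), with differences of 2.69 in females and 0.83 in males, and -1.94 for Gm21750 (adjusted p = 4.41e-05), with 2.92 and 1.11. Without the 3 highest libraries, of which 2 are female, the values were -1.03 (adjusted p = 0.541) and 0.02 (adjusted p = 0.998). The male minus female value was -0.93 for Irgm1 (adjusted p = 2.32e-05) and -1.82 for Gbp7 (adjusted p = 0.00031), whose values in each sex and without the 3 highest libraries stand with the sex comparison. The part of the single libraries in these differences was not tested beyond these values.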

How the results depend on the processing

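Leaving out the 4 highest libraries, the highest library, DO191, or the highest library and DO191 was chosen after seeing the data. Of the genes tested 4.39% were called with all libraries. DESeq2, no TMM factor, the 2 filters, the block covariate, no covariate, the other group sizes and rankings, the 50 libraries below the group or the libraries that went against their sex label left out, females alone, and the 1, 3, 4 or 6 highest left out gave between 3.46% and 5.11%, and block 5 gave 5.42%. Shares moved by over 1.5 times as follows, with those of at least 1.5-fold (2.79% with all) second: cell and fibre covariates 1.36% and 0.786%, the 12 highest left out 0.35% and 0.249%, DO191 left out 1.48% and 0.95%, the highest and DO191 left out 1.05% and 0.69%, males 0.896% and 0.683%, and blocks 1 to 4 0.741% and 0.657%, 0.224% and 0.214%, 0.222% and 0.207%, and 0.234% and 0.207%. Block 5 gave 4.41% of at least 1.5-fold, limma on the VST score 2.53% and 0.383%, and rank normal scores 2.13%. Leaving out each of the 24 libraries in turn under limma on the VST score gave 1.45% (without DO191) to 2.83% and 0.345% to 0.446%. Fits within a block, sex or shorter Igtp range have fewer samples, and for the other shifts the cause was not tested. The sex interactions (0.239%) were 0.00531% (1 gene) by limma on the VST score, 0 on rank normal scores and 0 without the 3 highest. The slopes in the rest (2.92%) were 0.154% (29 genes) over the 50% with higher Igtp and 0 over the 50% with lower Igtp.

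List medians moved by more than 1 SD between animals as follows. On the VST score they were 1.03 for the GTPases, 0.35 antiviral, 0.24 interferon gamma effectors, 0.20 chemokines, 0.27 T and NK, 0.18 B and plasma cell, 0.13 neutrophil and 0.10 mitosis, a scale that compresses low genes. Without the 12 highest they were 0.91 for the GTPases, 0.29 antiviral, 0.25 interferon gamma effectors, 0.23 chemokines, 0.59 T and NK, 0.18 neutrophil and 0.12 mitosis. The GTPase median was 1.42 without the 3 or the 4 highest and 1.24 without the 6 highest. Without DO191, and without it and the highest, the T and NK median was 0.064 and 0.10, B and plasma cell -0.11 and -0.039, and mitosis 0.081 and 0.0245, and without both chemokines 0.21.

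Of the 103 named genes with a test, these turned their sign and were called with all libraries or under the setting. Within block 1 they were Cfb -0.060, Igkc -1.20, Jchain -1.30, Cd22 -2.44, Ccr7 -1.39, Tnfaip3 -0.31 and Isg15 -0.034. Within block 2 they were Gm4841 -1.30, F830016B08Rik -0.47, Tnks1bp1 0.0055, Mki67 -0.43, Bub1 -0.38, Gm21750 -0.36 and BC023105 -0.78. Within block 3 they were Ifit1bl1 -1.85, Ccl5 -1.01, Cfb -0.13, C4b -0.20, Gzma -0.49, Cd3g -2.88, Il2rb -1.04, Igkc -2.40, Jchain -1.04, Cd22 -3.05, Ccr7 -2.41, Itgax -0.32, Mki67 -0.35 and Bub1 -0.33. Within block 4 they were Ifit1bl1 -0.41, Cd22 -0.88 and Cxcr2 -0.083. With cell and fibre covariates they were Cd22 -0.40, Flt3 -0.012 and Ccnb1 -0.01. Without DO191 Cd22 was -0.36, and without it and the highest -0.30. Leaving 1 library out in turn on the VST score, Cd22 ran from -0.022 to 0.25. A further 188 sign changes, counted over genes and settings, were of genes called in neither fit, Cd8a among them. No paired analysis was possible because each animal gave 1 library and the labels pair no animals. Precision was limited by the 24 libraries of the group and, for genes under 1 CPM, by their low counts.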

Other observations

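Beyond the groups above, antiviral and lymphocyte genes marked animals that Igtp did not. DO345, at Igtp rank 36, had the most GTPases above the 95th percentile among the rest (17 of 27) and also 20 of 24 class I genes, all 9 class II genes and 18 of 19 T and NK cell markers. DO158, at an Igtp score of 9.19, had 40 of 54 antiviral genes above it, beside 42 of 54 in DO326, the highest library by Igtp. DO320, at rank 19, was the opposite case, with 1 GTPase and 0 of the 54 antiviral genes above it, although Irgm2 and Iigp1 were at 32.4 and 81.6 CPM in that library, ranks 9 and 6 of all libraries.

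The oxidative phosphorylation list gave no calls with both sexes together. In 1 Igtp-high library, DO276 at rank 10, 37 of the 46 genes lay above the 95th percentile. DO191 had 31 of 49 cytosolic ribosomal protein genes above it. Of the 24 libraries DO060, at rank 13, had 11 of 22 acute-phase and glucocorticoid-responsive genes above it, against a median of 0 in the group.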
